A study of Mus musculus with 2 samples.

Results

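The 42 genes described here serve meiosis or the piRNA pathway of germ cells. They were chosen as a named list with no measured threshold, although earlier results of these data were known, from the 21938 protein-coding genes of the GRCm38 annotation, and all 42 were found there. In 6 groups by role they comprise 7 genes of the synaptonemal complex, 5 of meiotic cohesin and the chromosome axis, 7 of recombination, 5 regulators of germ cell RNA and of meiotic entry, 13 of the piRNA pathway and 5 other germ cell genes. DNase-seq was used to map open chromatin, in which DNase I cuts DNA that nucleosomes and other proteins leave exposed. The tissue was whole ovary from females aged 36 days of B6CASTF1/J, an F1 hybrid of a B6 and a CAST parent, and no treatment or gene change is given in the labels. There was 1 group with 2 libraries, replicates 1 and 2. The labels number the females of the replicates differently but give both the same donor entry, so no more is known of how separate the animals were. The descriptions below cover those 2 libraries, and no test between groups was possible.

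Meiosis begins in the fetal ovary, and the oocytes of a young female are arrested late in meiotic prophase inside follicles of somatic cells. In most somatic cells germline genes are silent, many of them under DNA methylation of CpG-rich promoters and under repressor complexes that contain E2F6, MGA and MAX and that bind E-box and E2F letters. The piRNA pathway loads small RNAs onto PIWI proteins to silence transposons. In female mice it is active in oocytes but, unlike in males, it is largely dispensable for fertility.

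The tissue label was checked against markers of ovarian cells. A promoter peak in both libraries was present at 8 of 8 granulosa cell genes, 5 of 6 theca cell genes and 3 of 4 stromal genes. Foxl2, Nr5a1 and Pdgfra were highest in their lists. Over all protein-coding genes the share was 66.7%, not far below the 83.3% of theca and the 75% of stromal genes. At the principal start alone 6 of 8 granulosa genes had a peak, against 62.5% of all protein-coding genes. Of 10 oocyte genes 2, Gdf9 and Zar1, had a promoter peak in both libraries at any start. Gdf9 shares its start region with the respiratory chain gene Uqcrq. Bmp15, Figla and Nlrp5 had none in either library. Of 4 macrophage genes 1 had such a peak, and of 8 spermatogenic genes 2. In whole tissue, fewer cells of a type and a less open site in each cell cannot be told apart, so a promoter without a peak may still be open in oocytes.

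Sequences from the reference are shown for members whose sites carry the main patterns. The first set gives the open sites of 3 members whose peak in both libraries lay away from the principal start, the start of the principal coding transcript. They are chr5:107359441-107359640 on the plus strand, chr8:33517161-33517323 on the plus strand and chr17:50292893-50292960 on the minus strand, all GRCm38 (mm10). Capitals mark bases that lay in a footprint, a short stretch protected from DNase I, in both libraries.
Brdt: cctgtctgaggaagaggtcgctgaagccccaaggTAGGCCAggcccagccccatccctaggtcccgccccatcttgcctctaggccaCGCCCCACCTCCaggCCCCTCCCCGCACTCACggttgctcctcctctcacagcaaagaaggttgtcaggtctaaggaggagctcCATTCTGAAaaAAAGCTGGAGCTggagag
Tex15: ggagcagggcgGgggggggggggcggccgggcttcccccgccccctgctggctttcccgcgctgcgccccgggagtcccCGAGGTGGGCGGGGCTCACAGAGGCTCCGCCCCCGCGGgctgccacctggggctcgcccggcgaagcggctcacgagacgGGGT
Dazl: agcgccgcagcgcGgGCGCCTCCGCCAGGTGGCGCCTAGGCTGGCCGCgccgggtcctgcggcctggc
The Brdt site crosses from an intron into a coding exon, which holds 94 of its 200 bases. For Tex15 and Dazl only the bases of the peak that lie outside any exon are given.

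The second set gives the 200 bases upstream of the start of 5 members that had no promoter peak in both libraries, to show the letters that recur there. Sycp1 and Tdrd1 did have a peak in replicate 1 alone, at 0.274 and 0.580, that overlaps the stretch printed. Hormad1, Tex12 and Slc25a31 had no promoter peak in either library. Capitals mark the E-box CACGTG, the E2F letters TCCCGC (or GCGGGA, their other strand) and the palindromic consensus of NRF1. Each ends at the base before the principal start. Hormad1 is chr3:95559477-95559676 and Slc25a31 chr3:40708655-40708854, both on the plus strand. Tex12 is chr9:50561326-50561525 and Sycp1 chr3:102936101-102936300, both on the minus strand, and Tdrd1 is chr19:56826009-56826208 on the plus strand.
Hormad1: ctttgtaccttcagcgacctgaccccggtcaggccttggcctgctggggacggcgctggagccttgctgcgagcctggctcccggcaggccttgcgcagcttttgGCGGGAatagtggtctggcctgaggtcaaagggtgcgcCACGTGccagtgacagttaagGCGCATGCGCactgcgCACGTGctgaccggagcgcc
Tex12: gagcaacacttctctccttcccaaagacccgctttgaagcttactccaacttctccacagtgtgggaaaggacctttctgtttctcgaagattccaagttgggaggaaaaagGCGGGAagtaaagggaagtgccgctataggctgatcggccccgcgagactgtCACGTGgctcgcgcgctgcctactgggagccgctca
Slc25a31: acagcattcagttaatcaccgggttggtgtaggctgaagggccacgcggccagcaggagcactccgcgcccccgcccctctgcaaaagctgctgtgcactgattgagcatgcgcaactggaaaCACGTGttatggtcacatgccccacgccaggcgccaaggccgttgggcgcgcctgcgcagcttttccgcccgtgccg
Sycp1: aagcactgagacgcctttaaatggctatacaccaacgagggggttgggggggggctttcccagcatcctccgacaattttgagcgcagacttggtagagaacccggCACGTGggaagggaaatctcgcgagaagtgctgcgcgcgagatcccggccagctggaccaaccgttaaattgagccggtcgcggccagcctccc
Tdrd1: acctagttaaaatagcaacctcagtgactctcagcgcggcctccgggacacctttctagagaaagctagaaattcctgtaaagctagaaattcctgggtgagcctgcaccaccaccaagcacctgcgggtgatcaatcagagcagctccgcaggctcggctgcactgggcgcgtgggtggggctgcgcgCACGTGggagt
The third set gives the same stretch, with the same capitals, for 3 members whose promoters were open in both libraries. Tdrd7 is chr4:45972033-45972232 on the plus strand, Mei4 chr9:81863470-81863669 on the plus strand and Msh5 chr17:35046746-35046945 on the minus strand, the last taken from the gene's first annotated start, just upstream of the principal one.
Tdrd7: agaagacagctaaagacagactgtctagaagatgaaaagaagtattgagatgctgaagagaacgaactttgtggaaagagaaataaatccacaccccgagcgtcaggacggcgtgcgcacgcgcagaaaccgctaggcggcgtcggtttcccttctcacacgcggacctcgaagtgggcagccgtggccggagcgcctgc
Mei4: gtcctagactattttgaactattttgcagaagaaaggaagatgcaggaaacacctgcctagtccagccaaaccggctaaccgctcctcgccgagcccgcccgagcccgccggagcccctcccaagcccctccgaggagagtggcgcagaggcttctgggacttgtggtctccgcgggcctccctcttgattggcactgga
Msh5: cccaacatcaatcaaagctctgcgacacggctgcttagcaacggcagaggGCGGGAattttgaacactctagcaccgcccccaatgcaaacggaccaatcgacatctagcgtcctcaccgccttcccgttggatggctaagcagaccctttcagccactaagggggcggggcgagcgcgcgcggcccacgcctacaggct
The stretches of Tdrd7 and Mei4 hold none of the 3 motifs, and that of Msh5 holds the E2F letters alone. The contrast between these sets is cleaner than that over all members. In 600 bp around the principal start, CACGTG was in 14 of the 25 members without a peak there in both libraries. It was also in 6 of the 17 members with one.

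A gene was counted as having a promoter peak when a peak of the authors' longer list lay within 500 bp of any of its annotated start sites. By this count 21 of the 42 germline genes (50%) were open in both libraries, compared with 66.7% of all protein-coding genes (14631 of 21938). In a single library 5 members had one, and 16 members had none in either. At the principal start alone the count was 17 of 42 (40.5%), against 62.5% of all protein-coding genes. The 42 genes have 167 annotated starts, of which 54 were open in both libraries, but the share over the starts of other genes was not computed.

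The 21 open members were of several kinds. At 12 of them, peaks of both libraries overlapped at the principal start, with no other coding gene starting within 1000 bp. At 3 (Smc1b, Stag3 and Tex14) another coding gene started in the same region. At 4 (Dazl, Piwil4, Tex15 and Brdt) the shared peak lay only at another annotated start. At the remaining 2 (Ythdc2 and Rnf17) the peaks of the libraries did not overlap each other.

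Peak values are the authors' signal values, on a scale not given in the sources used here. Open members had a median of 2.57 in replicate 1 and 1.87 in replicate 2, against 6.69 and 3.61 at the other protein-coding genes with a promoter peak in both. Of the 21, 16 lay below 5.15, the median over all open promoters of the mean of both libraries. Members ranged from 0.293 to 23.7 in replicate 1 and from 0.249 to 11.3 in replicate 2. The values are whole multiples of a small step, and a value of 1 is 154 steps in replicate 1 and 153 in replicate 2, so the weakest members rested on few steps.

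**Figure D1:**
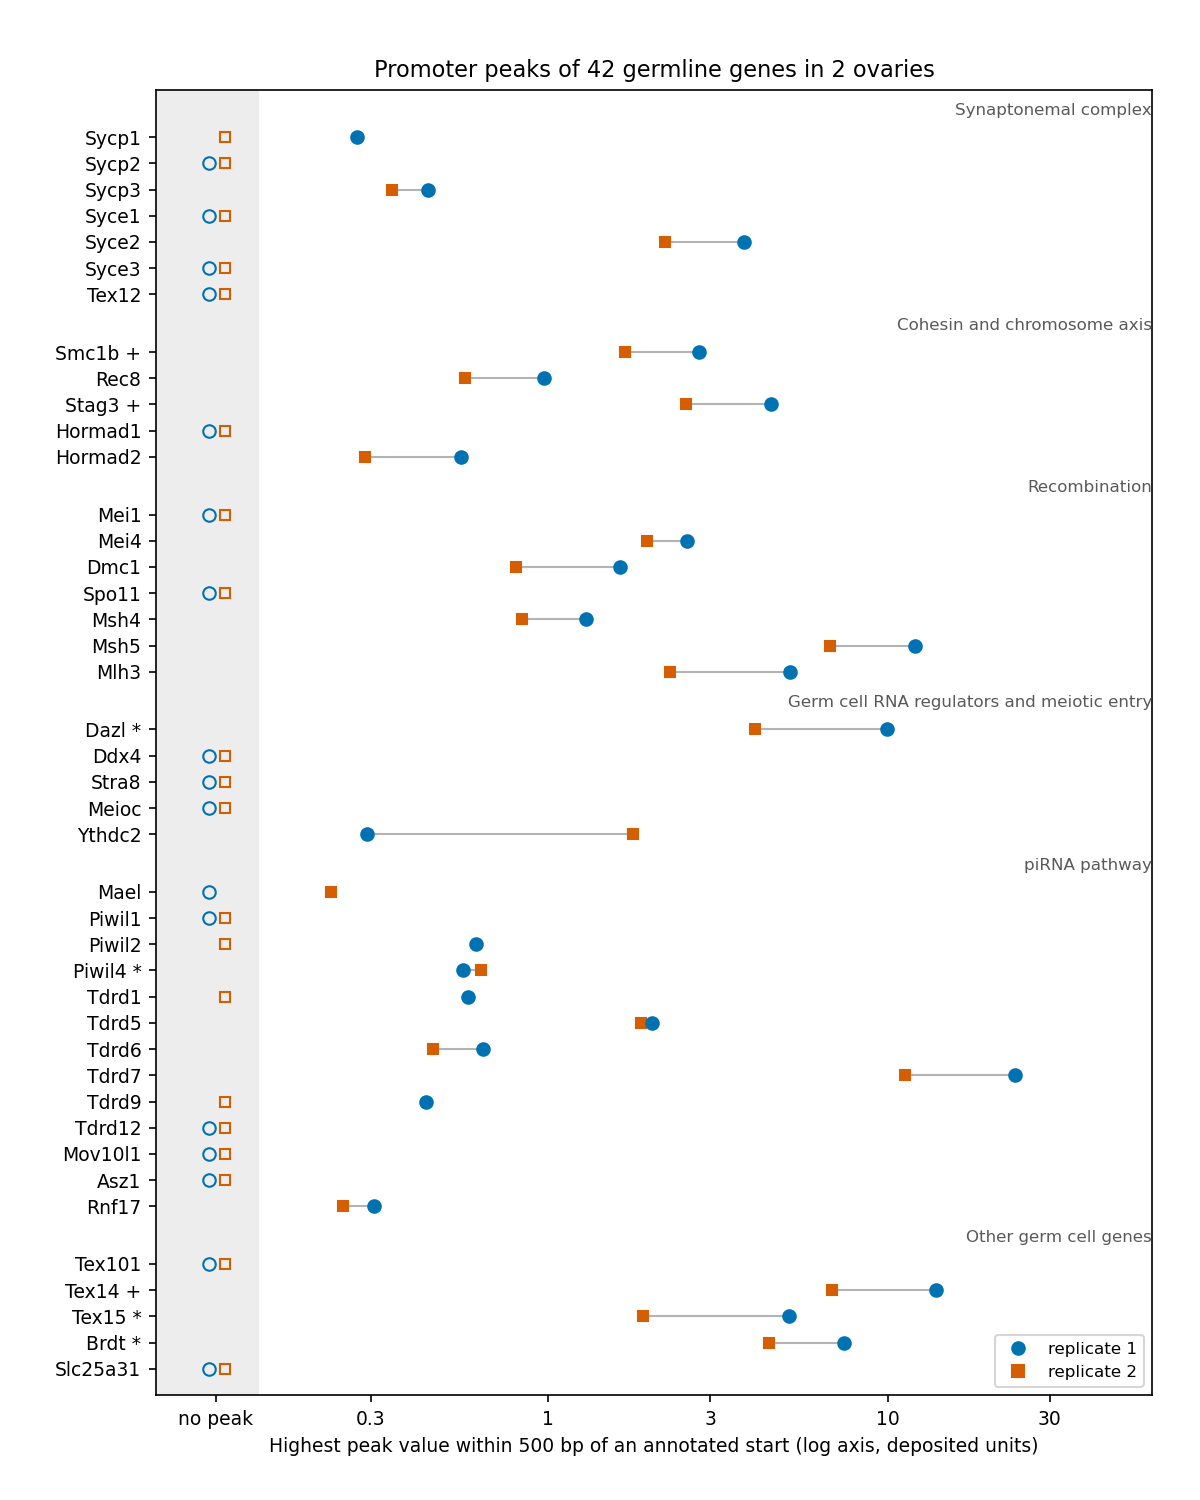
Highest promoter peak value of each of the 42 germline genes (log axis, deposited units) in replicate 1 (circles) and replicate 2 (squares), by role. Open symbols in the grey band stand for no peak, a star for a shared peak away from the principal start alone and a plus for a start region shared with another coding gene. Tdrd7 is highest at 23.7 and 11.3, and 16 genes have open symbols for both libraries.

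The synaptonemal complex, the protein ladder that holds homologous chromosomes together, had 2 of 7 promoters open, the smallest share of the 6 groups when any start counts. At the principal start its share stayed at 28.6%, above the 20% of the RNA regulators and of the other germ cell genes. Syce2, of the central element, had values of 3.78 in replicate 1 and 2.21 in replicate 2 (mean 2.998 ± 1.11, SD, n = 2). Its peak of 200 bp covered the principal start and was centred 90 bp downstream of it. Sycp3, of the lateral element, had 0.443 in replicate 1 and 0.347 in replicate 2, near the floor of the peak list. Its peaks met only at their edges, and q-values, the authors' false discovery rates for cutting at each base, were no lower than 0.00536 and 0.0269. The transverse filament gene Sycp1 had a peak of 0.274 in replicate 1 alone, where 126 bases near its starts carried a listed q-value, against 0 in replicate 2. The lateral element gene Sycp2 and the central element genes Syce1, Syce3 and Tex12 had none in either library. Syce2 thus stood apart within the group in both libraries.

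Meiotic cohesin and the chromosome axis had the highest share, 4 of 5, by either count of starts. Stag3, a cohesin subunit, had 4.55 in replicate 1 and 2.55 in replicate 2, with its peak centred 85 and 105 bp from the start of Gpc2, a glypican gene on the other strand. Smc1b, the meiotic SMC subunit, had 2.79 and 1.69, with its peak centred 2 and 8 bp from the start of Ribc2. At both genes, opening at the member and at its neighbour cannot be told apart. Rec8, the meiotic kleisin that ties sister chromatids, has no coding neighbour there and had 0.970 in replicate 1 and 0.569 in replicate 2. Hormad2, an axis checkpoint protein, was weak at 0.554 and 0.288, and its paralog Hormad1 had no peak. At Hormad1 the nearest base with a listed q-value lay 28906 bp away in replicate 1 and 5446 bp away in replicate 2.

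Recombination genes were open at 5 of 7. Msh5, which with Msh4 stabilises crossover intermediates, reached 12.04 in replicate 1 and 6.76 in replicate 2 (mean 9.40 ± 3.74, SD, n = 2), above 80.7% of open promoters. Its partner Msh4 had 1.29 and 0.838, and those peaks lay 1388 bp downstream of the principal start, at another annotated start. At the principal start of Msh4 the values were 0.417 and 0.295. The partners of this protein pair therefore differed in value in both libraries, 12.04 against 1.29 in replicate 1 and 6.76 against 0.838 in replicate 2. Mlh3, a MutL protein of crossing over and of mismatch repair in somatic cells, had 5.15 in replicate 1 and 2.28 in replicate 2. Mei4, needed for the breaks that start recombination, had 2.57 and 1.95 in a peak of 260 bp over its start. Dmc1, the meiotic recombinase, had 1.63 and 0.805, again over its start. Spo11, which makes the breaks, and Mei1, required for them, had no promoter peak in either library. At Mei1 the nearest listed bases were 943 and 925 bp from a start, and a reach of 1000 bp added this gene to the open ones.

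Among the regulators of germ cell RNA and of meiotic entry, 2 of 5 were open. Dazl, an RNA-binding activator of translation, had 9.92 in replicate 1 and 4.07 in replicate 2, in a peak of 240 bp in each. That peak was centred 796 bp downstream of the principal start, at a further annotated start, and its upstream part is printed above. At the principal start of Dazl replicate 1 had a weaker peak of 0.879, and replicate 2 had none, although 290 bases there carried listed q-values with a lowest of 1.52e-07. Ythdc2, an RNA helicase that works with Meioc, had 0.293 in replicate 1 and 1.78 in replicate 2, in peaks that did not overlap. Ddx4, the germ cell RNA helicase known as Vasa, Stra8, the retinoic acid target that starts meiosis, and Meioc had no promoter peak in either library. At Stra8 the nearest listed bases lay 992 and 1001 bp from a start.

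The piRNA group was open at 5 of 13, with 4 more members called in a single library. Tdrd7, a Tudor protein of germ granules that also acts in the lens, had the highest value of all members, 23.7 in replicate 1 and 11.3 in replicate 2 (mean 17.5 ± 8.81, SD, n = 2). It lay above 99.3% of open promoters, with a peak of 220 bp over the principal start. Tdrd5, a Tudor protein of pachytene piRNA processing, had 2.02 and 1.87 at an internal start in a coding exon, and 1.99 and 0.766 at the principal start. The other 3 were weak. Tdrd6 had 0.645 in replicate 1 and 0.458 in replicate 2, in broad peaks of up to 800 bp. Piwil4, the nuclear PIWI protein, had 0.560 and 0.635, near an internal start, with the peaks centred 22475 and 22660 bp from the principal one, and was the only open member with overlapping peaks that was lower in replicate 1.

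Rnf17, a Tudor protein also called TDRD4, had 0.306 in replicate 1 and 0.249 in replicate 2, in peaks that did not overlap. Piwil2, the PIWI protein that feeds Piwil4, had a peak of 0.612 in replicate 1 alone, and so did Tdrd1, its Tudor partner, at 0.580. Tdrd9, a helicase with a Tudor domain, had 0.436 in replicate 1 alone, and that peak too was internal. Mael, a germ granule protein, had 0.229 in replicate 2 alone. Piwil1, the PIWI protein of pachytene piRNAs, Tdrd12, the helicase Mov10l1 and the mitochondrial protein Asz1 had none. Tdrd7 thus exceeded the other 12 piRNA genes in both libraries, since the next, Tdrd5, was at 2.02 and 1.87.

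Of the other germ cell genes 3 of 5 were open, but 1 at the principal start. Tex14, of the bridges between germ cells, had 13.8 in replicate 1 and 6.87 in replicate 2, in a peak centred 17 and 27 bp from the start of Rad51c, a DNA repair gene on the other strand. A weaker peak of 0.769 lay over the start of Tex14 itself in replicate 1 alone. Brdt, a testis reader of acetylated histones, had 7.44 in replicate 1 and 4.48 in replicate 2, in a peak 28382 bp downstream of the principal start near a noncoding transcript's start. No base near the principal start of Brdt carried a listed q-value in either library. Tex15, a partner of Piwil4 that is also needed in meiotic recombination, had 5.13 and 1.90, in a peak centred at -53274 bp from the principal start, at the start of a longer transcript. The sperm surface protein gene Tex101 and Slc25a31, a testis ADP/ATP carrier, had no promoter peak. High values in this group thus lay close to a neighbour's start, at Tex14, or near other annotated starts of the gene, at Brdt and Tex15. At Tex14, opening at the member and at its neighbour cannot be told apart.

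**Figure D2:**
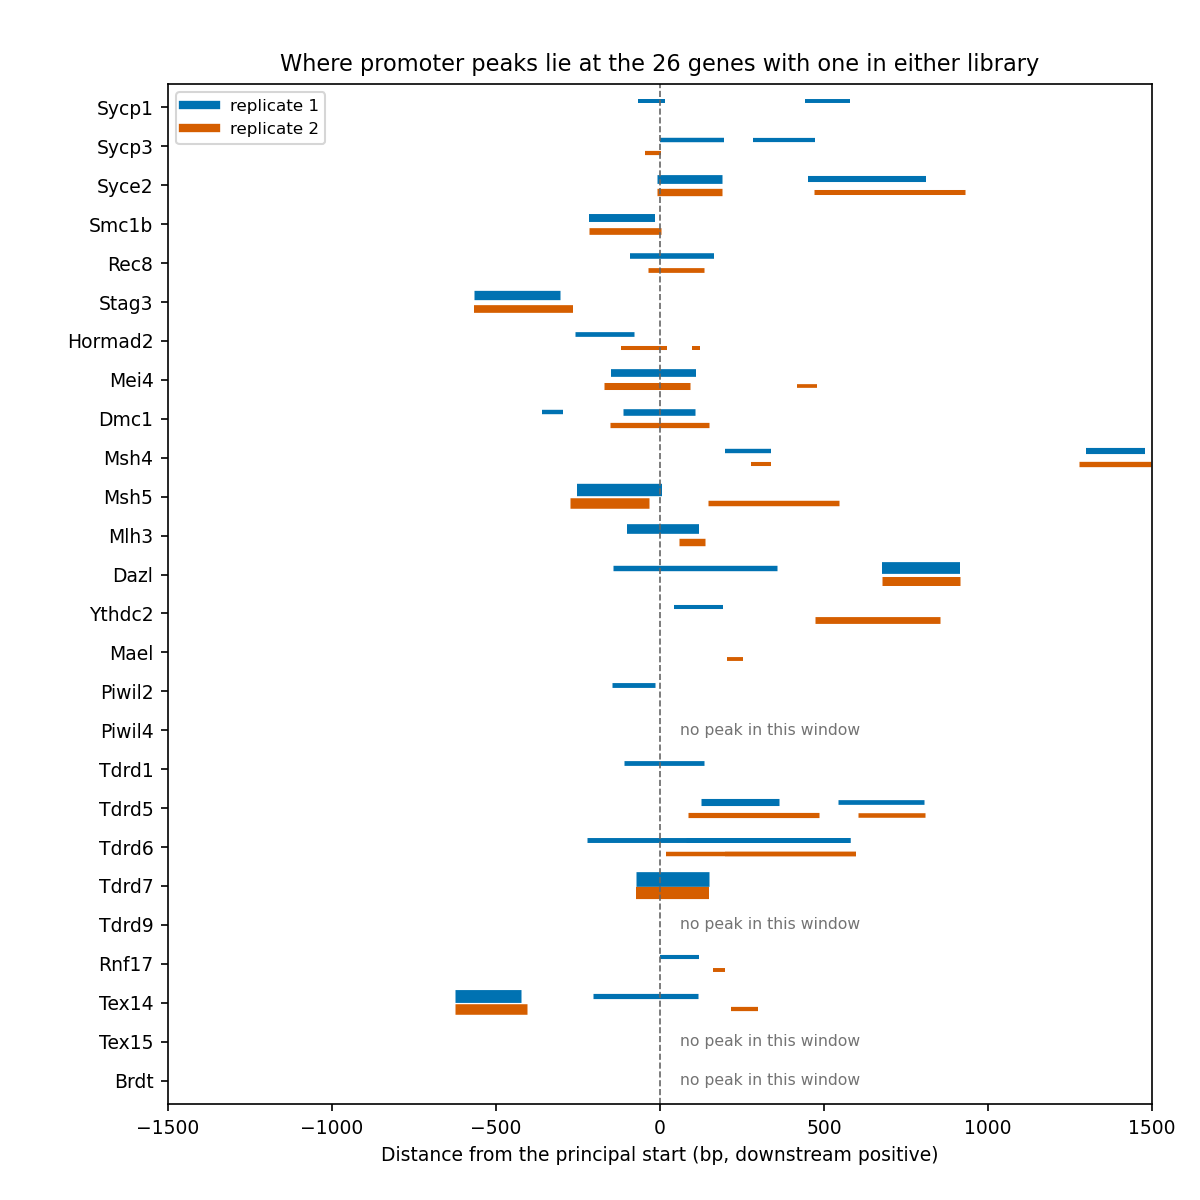
Promoter peaks within 1500 bp of the principal start at the 26 germline genes with a promoter peak in either library, as bars in replicate 1 (upper bar of each row) and replicate 2 (lower bar), thicker for higher values. Peaks of Tdrd7, Mei4 and Dmc1 span the start in both libraries, those of Stag3 and Tex14 lie upstream, towards a neighbour's start, and that of Dazl lies 796 bp downstream.

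At the 16 members without a promoter peak, the listed q-values were read as well. No base within 500 bp of any of their starts carried a listed q-value in either library, 0 of 16 genes. Listed values reach up to 0.0499, while Sycp3 had a peak in replicate 2 with a lowest q-value of 0.0269. Listed bases did occur outside peaks, since the principal start of Dazl in replicate 2 had 290 of them and no peak. How far the list reaches beyond the peaks in general was not measured. Among the other protein-coding genes without a promoter peak, 2.67% (174 of 6528) had such a base in either library and 0.49% in both, so a count of 0 in 16 is close to that background. The nearest listed base lay from 660 bp (Mov10l1, replicate 2) to 43009 bp (Asz1, replicate 1) away. Depth per site is not given in the files, so opening in a small share of cells was not detectable here.

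Replicate 1 had the higher values at most promoters of the genome, and members followed it. The log2 ratio of replicate 1 over replicate 2 had a median of 0.77 at the 19 members with overlapping peaks, 18 of which were higher in replicate 1. Over 14585 protein-coding genes the median was 0.89 with an SD of 0.38, and 96.8% were higher in replicate 1. Member ratios ran from -0.18 at Piwil4 to 1.43 at Tex15. The animals and their libraries cannot be told apart in these ratios, and the part of the offset in the single-library calls was not tested.

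Germline promoters were at least as rich in CpG as others, yet fewer of them were open. Promoters were classed over 600 bp around the principal start as CpG-rich (observed over expected CpG of 0.6 or more and GC of 55% or more), CpG-poor (ratio under 0.4) or intermediate. The median ratio was 0.656 in members and 0.606 in other genes, and the median GC was 60.3% in members and 57.3% in others. Of 25 CpG-rich member promoters 12 (48%) had a peak in both libraries, against 96.5% of 10045 others. The intermediate class had 4 of 13 (30.8%) in members and 76.5% in others, and the CpG-poor class 1 of 4 (25%) in members and 15.3% in others.

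Of the genome's 366 CpG-rich promoters without a peak in both libraries at the principal start, 13 belonged to members (3.55%), whereas members are 0.248% of all CpG-rich promoters. These 13 are Sycp1, Tex12, Hormad1, Spo11, Dazl, Ddx4, Meioc, Mael, Tdrd1, Mov10l1, Asz1, Brdt and Slc25a31. Of these, Dazl and Brdt were open in both libraries at another start, and over all starts 14 of the 25 CpG-rich members were open. DNA methylation was not measured in these libraries.

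**Figure D3:**
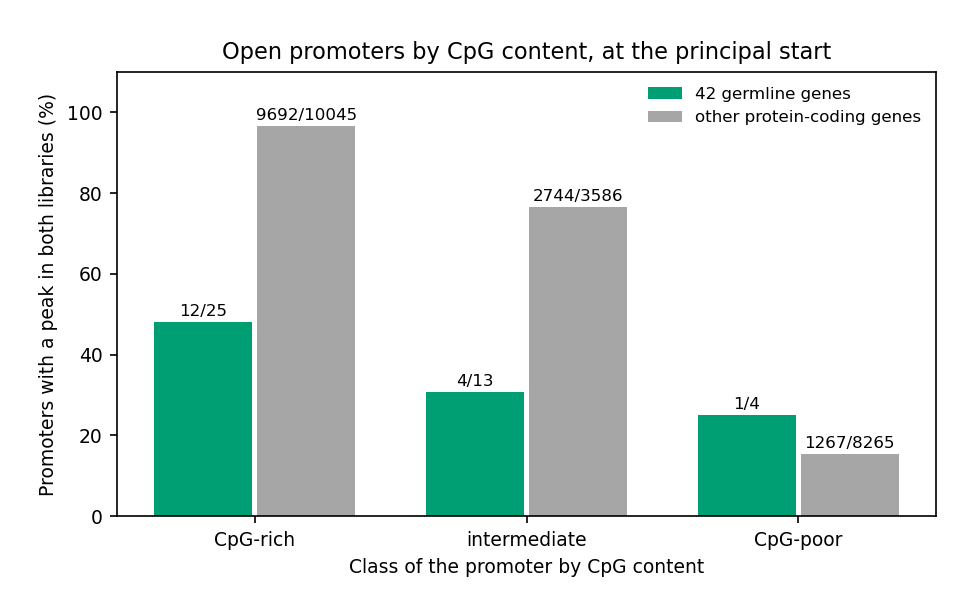
Share of promoters with a peak in both libraries at the principal start (%), by CpG class, for the 42 germline genes (left bar of each pair) and other protein-coding genes (right bar), with counts above the bars. In the CpG-rich class the share is 48% in germline genes and 96.5% in others.

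E-box letters were more common at germline promoters than at others, and within the CpG-rich class they were more common at members without a peak. CACGTG, bound by MGA with MAX and by other bHLH proteins, was found in the 600 bp around the principal start of 20 of 42 members (47.6%), against 11.7% of other protein-coding promoters and 15.9% of other CpG-rich ones. All motifs were searched on both strands. Over all members it was present in 14 of the 25 without a peak in both libraries at the principal start and in 6 of the 17 with one. Among CpG-rich member promoters it was present in 10 of the 13 without a peak in both libraries (76.9%) and in 3 of the 12 with one (25%). Outside the CpG-rich class the order was the other way, with 4 of 12 without a peak and 3 of 5 with one. Among other CpG-rich promoters the shares were 16.1% without a peak and 15.9% with one. Of the 26 matches in members, 17 lay within 100 bp of the start, but the share at other promoters was not computed. Hormad1 carries CACGTG with its first base at -57 and -20 from the start, as printed above, with the NRF1 consensus between them at -36. In Tex12 it lies at -36, in Slc25a31 at -77 and in Tdrd1 at -11.

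Other motifs were searched in the same windows. The E2F letters TCCCGC were in 22 members (52.4%) and in 40.8% of other promoters, but in 68.7% of other CpG-rich ones. Among CpG-rich members they were in 69.2% of those without a peak and in 83.3% of those with one. Both E-box and E2F letters were in 11 members (26.2%) and in 6.01% of other promoters. The palindromic consensus of NRF1, a factor of housekeeping and germline promoters, was in 4 members (9.52%) against 1.43%. For AACNGNC, the core bound by MYB proteins, the shares were 76.2% in members and 52.2% in others. For CNCCTCA, the letters bound by STRA8 with MEIOSIN, they were 71.4% in members and 38.8% in others. The SP letters GGGCGG were in 69% of members and 56.7% of others, against 90.1% of other CpG-rich promoters. TGACGTCA, the CREB and CREM site, was in 0 of 42 members and in 2.91% of others. Short motifs such as AACNGNC match often by composition, and a match is not a bound site.

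**Figure D4:**
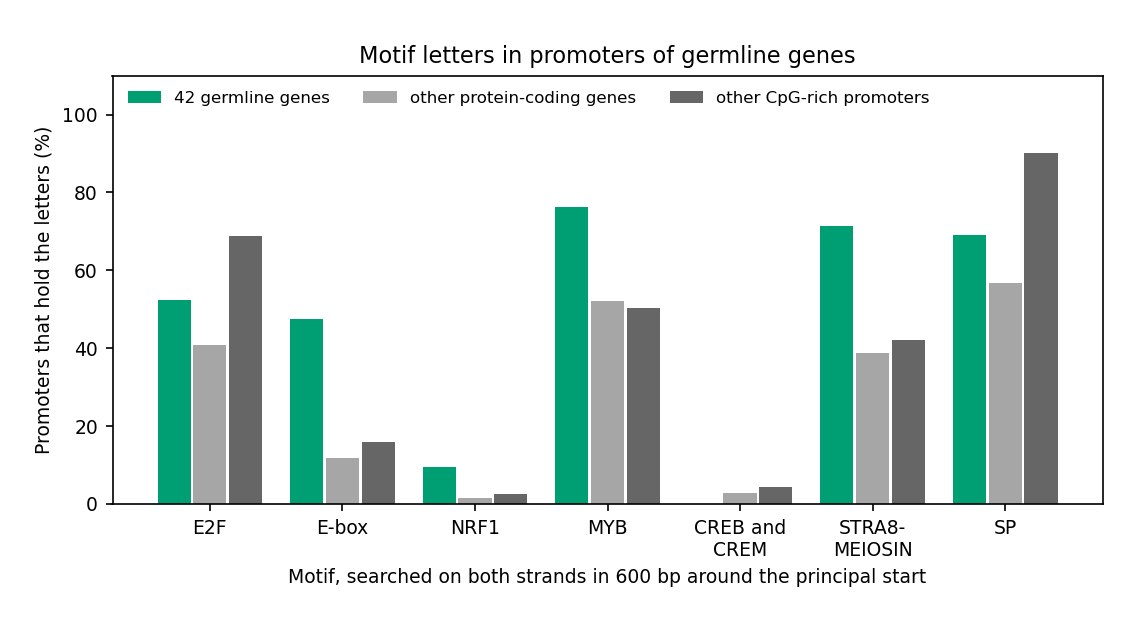
Share of promoters (%) that hold each motif on either strand in the 600 bp around the principal start, for the 42 germline genes, other protein-coding genes and other CpG-rich promoters, in that order within each set of bars. The E-box bars stand at 47.6%, 11.7% and 15.9%.

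Inside the promoter peaks, footprints were called in both libraries at 17 of the 21 open members (81%), against 97.3% of other open promoters. The median was 4 footprints per member in replicate 1 and 4 in replicate 2, against 5 and 6 at other genes. Brdt had 5 in each library, and 4 of the 5 in each library met one of the other library, while Mei4 had 8 and 5. Mlh3 had 4 in replicate 1 and 0 in replicate 2, Sycp3 had 3 and 0, and Hormad2 and Rnf17 had none. Members with few footprints include the weakest peaks, and the number that can be called may move with the value, which was not tested.

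Footprints were set beside the motif letters, with an overlap of at least 1 base counted. Inside shared member promoter peaks there were 32 matches of GGGCGG in 11 genes, of which 22 met a footprint in both libraries and 14 lay wholly inside one in both. The E2F letters had 13 matches, with 3 meeting footprints in both, at Msh5, Rec8 and Tex14, of which that at Rec8 was covered only in part. CACGTG had 3 matches, at Syce2 and Mlh3, and none met a footprint in either library. No background share was computed for these counts, and 3 matches are too few to set against the SP letters. The footprint shared by both libraries at Tex15 covers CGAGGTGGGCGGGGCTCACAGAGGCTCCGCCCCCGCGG, in capitals above, which includes SP letters on both strands. The CTCF consensus, searched for after the peaks had been seen, was in 2 of 28 shared member promoter peaks (7.14%), those of Dazl and Tex15, against 1.84% of other promoter peaks. At Dazl the protected run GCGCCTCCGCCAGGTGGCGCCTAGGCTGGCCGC was seen in both libraries. Whether CTCF is bound there was not measured.

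Distal sites near the germline genes were fewer on average than elsewhere, at a mean of 1.1 per member against 2.41 per other gene. Shared peaks whose centre in replicate 1 lay over 1 kb from every start were assigned to the nearest protein-coding start. Members had 46, a median of 1 per gene with a range from 0 to 6, and 20 members had none (47.6%). Other genes also had a median of 1, and 41.8% had none. Per Mb of the territory nearest to each gene, members had 13.9 and other genes 19.4. The order depended on the promoter. With a promoter peak in both libraries, members had 12.8 per Mb and other genes 22.5. Without one, members had more, at 16.2 against 10.8. The median value of the peaks was 0.782 in members and 0.793 in others, and the median distance was 10.8 kb and 19.6 kb. Of the 46, 21 were intronic, 19 intergenic and 6 exonic, 19 lay inside the member itself and 8 inside another gene.

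The 6 strongest distal sites belonged to members with weak promoter peaks, at most 1.78, or none. Such members were common, since 16 of 42 had no promoter peak in either library and 5 had one in a single library. Further open members were also at or below 1.78, and a link between distal and promoter values was not tested. The strongest was in an intron of Piwil4, at chr9:14699101-14699280, with 5.87 in replicate 1 and 4.14 in replicate 2, 5.88 kb from a start. The internal promoter peak of Piwil4 had 0.560 and 0.635. Ythdc2 had a site 1.2 kb from its start in its own intron, with 4.61 in replicate 1 and 2.50 in replicate 2. In replicate 2 this peak was broader, centred less than 1 kb from the start, and overlapped the promoter peak of 1.78, so distal site and promoter were not separate there. The other 45 distal peaks had their centre over 1 kb from every start in replicate 2 as well. Beyond the 3′ end of Tdrd9 a site at chr12:112077781-112077940 had 3.59 and 2.76. Upstream of Meioc, at chr11:102651481-102651620 and 12.2 kb away, the values were 2.50 in replicate 1 and 2.28 in replicate 2. Near Tdrd6 a site in an intron of the neighbour Pla2g7 had 2.35 and 1.73. Stra8 had a site in its own intron, at chr6:34927281-34927440, with 1.80 in replicate 1 and 1.77 in replicate 2, although its promoter had no peak. Assignment is by distance alone, so these sites may serve other genes. The CTCF consensus was in 4 of the 46 (8.7%), against 6.91% of other distal peaks, including the strongest Piwil4 site.

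**Figure D5:**
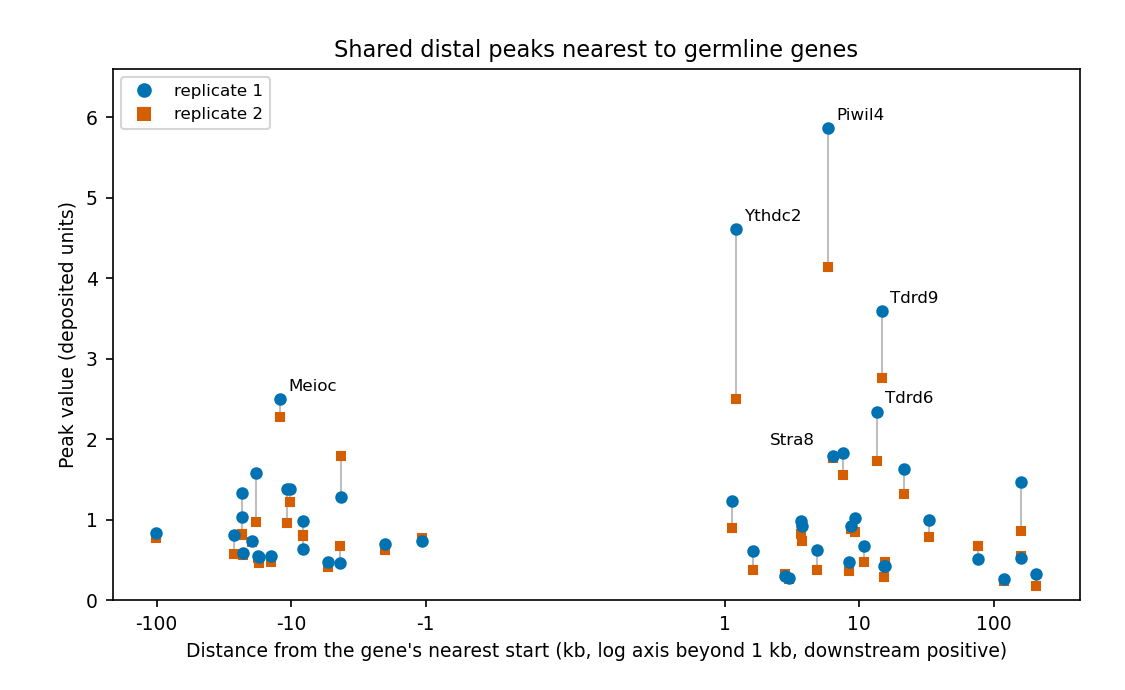
Value of each of the 46 shared distal peaks in replicate 1 (circles) and replicate 2 (squares), against the distance of its centre from the nearest start of its germline gene (kb, log axis beyond 1 kb). The Piwil4 site is highest at 5.87 and 4.14.

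Further genes of the same pathways and the repressors of germline genes were read in the same way. Of 22 other meiosis genes 14 were open in both libraries (63.6%), close to the 66.7% of all genes, with Mnd1, a recombination cofactor, at 19.9 in replicate 1 and 10.03 in replicate 2. Ccnb1ip1, a regulator of crossing over that shares its start region with Parp2, had 12.9 in replicate 1 and 9.94 in replicate 2. Ankrd31, Iho1 and Majin had no peak in either library. Of 13 other piRNA genes 6 had one (46.2%), with Exd1, which shares its start region with Chp1, at 18.2 in replicate 1 and 7.57 in replicate 2, then Tdrkh and Tdrd3. Fkbp6, Gpat2 and Gtsf1 had none. All 13 genes for repressors that act on germline promoters in somatic cells had one in both libraries, against 66.7% of all genes. At the principal start all 13 had one too, against 96.5% of CpG-rich promoters of genes other than the members. The CpG class of these 13 was not computed, so their count cannot be set apart from that share. Highest were Cbx3, Max and Dnmt1. Of these 3, Cbx3 shares its start region with another coding gene, Hnrnpa2b1. These lists were drawn up with earlier results of the data known.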

How the data were processed

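Whole ovary was profiled by DNase-seq in 2 libraries, taken as replicates 1 and 2 from the labels. Peaks, footprints and q-values were called for each library alone on mm10, per the labels and the descriptions deposited beside the files, and the aligner, callers and cutoffs were not given in the sources used here. The signal value of a peak is as the authors deposited it, with no scale stated. In each library 100% of the values below 2000 steps were whole multiples of a step, within 0.05 of a step, and whether a step is a read was not shown. The q-value per base in the deposited files is listed only up to 0.0499. The footprint score deposited by the authors is the same in every line, so only positions were used. Of 2 deposited peak lists per library the longer was used (109169 peaks in replicate 1 and 114462 in replicate 2).

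Starts came from GENCODE M21, and the genome was GRCm38. The principal start is that of the coding transcript ranked first by the annotation's APPRIS tags. Peaks were compared in Python 3.11.15 with numpy 2.4.6, and sequence was read with pysam 0.24.0. Peaks were shared when they overlapped by at least 1 base, and a distal peak had its centre over 1000 bp from every start. Of the members, 36 matched a promoter in the RefSeq table, and the 46 table sequences checked equalled the genome. The calls were tested on simulated data with 2000 planted genes, all of which were called correctly. With 1 group there was no contrast and no p-value, and the members are given beside all other protein-coding genes. The reference is that of B6, and how CAST alleles map to it was not tested.

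All members are accounted for. Named beside them are up to 3 genes of each context list with the highest values, up to 3 without a peak in alphabetical order, and the 6 strongest distal peaks. One item that this rule would name is not reported here. Alternatives were the shorter lists, other reaches and start sets, overlap rules, q limits and each library alone. The members, lists and alternatives were chosen with earlier results of these data known, and the principal start alone, the need for overlap between libraries and the CTCF search were added after the values had been seen.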

Additional observations from a re-analysis of the deposited data

How the results depend on the processing

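Of the 42 germline genes, 21 were open at a promoter in both libraries. The count was 17 with the shorter peak lists (62.8% of all genes), which dropped Hormad2, Rnf17, Sycp3 and Ythdc2. It was 22 with a reach of 1000 bp (68.2% of all genes), 20 with 250 bp (65.1%) and 19 with the starts of coding transcripts alone (65.6%). With the most upstream start alone, which dropped Tdrd7, it was 17 (61.2%), and with the principal start alone also 17 (62.5%). It was 19 when peaks had to overlap between libraries. With peaks at or above the median value it was 14 (61.2% of all genes). With the library of replicate 1 left out it was 22 (68% of all genes), and with that of replicate 2 left out 25 (68.9%). Of the 34 members with no other gene starting nearby, 15 were open, but the share of other such genes was not computed. The 46 shared distal peaks fell to 28 with the shorter lists and to 23 with peaks at or above the median value, since both lists hold fewer peaks. They numbered 33 between 2 and 100 kb and 42 with a reciprocal overlap of 50%, and single libraries gave 59 to 69. Footprints in both libraries were present at 17 members, or 15 with the shorter lists. No member without a peak had a listed base at a q-value limit of 0.01 or 0.001 or within 250 bp. The median promoter value of 2.24 was 2.34 as a sum of peaks and 2.25 with a reach of 1000 bp. The median log2 ratio of replicate 1 over replicate 2 was 0.77, and -0.11 once the median of all promoters was taken off. The SD of 0.38 over genes is the spread of single genes and does not measure that of a median over 19 members. No paired analysis was possible because there is 1 group. The peak files hold no depth per site, so a promoter open in few cells could have gone without a peak.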
